A study of Gallus gallus with 2 samples.

Results

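The planar cell polarity genes are a set of 10 named genes, VANGL2, PRICKLE1, PRICKLE2, CELSR1, SCRIB, ROR1, ROR2, RYK, PTK7 and DAAM1. Every probe set that the array annotation pairs with one of these symbols was taken, whatever its value. That gave 21 of 38382 analysed probe sets, and 10 of the 13009 genes with a symbol. The members were measured on 2 arrays, 1 of heart forming regions (HFR) and 1 of posterior primitive streaks (PPP), both from chick embryos. Per the labels, embryos of both groups were kept at 37.5 °C for about 12 h, then injected and electroporated at stage HH3 with pCer2.5-EGFP, in which a 2.5 kb upstream fragment of Cerberus precedes a green fluorescent protein. Heart forming regions that showed the fluorescence, and posterior streaks, were cut out at HH4 to HH4+ (a second label of both samples reads HH4-5), so the electroporation is shared by both tissues. The labels name 1 biological replicate of each tissue and do not give how many embryos were pooled.

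Planar cell polarity is the alignment of cells within the plane of a tissue. In the core pathway, Vangl and Prickle proteins gather on one side of a cell and Frizzled and Dishevelled on the opposite side, with Celsr cadherins bridging neighbours. Noncanonical Wnt ligands act through Frizzled, Ror, Ryk and Ptk7 at the cell surface, and Dishevelled passes the signal to the actin cytoskeleton. In the chick, this branch of Wnt signalling is known for the cell intercalation that shapes the epiblast before and during formation of the primitive streak.

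Values are model-based expression indices (MBEI), probe set intensities on a linear scale, and the errors after ± are the model's standard errors within 1 array. To pass the level filter, a probe set needed a present call and at least 70.8 MBEI on its brighter array, the median of the brighter value over all analysed probe sets. Log2 differences are HFR minus PPP. No difference below has a replicate check, since each tissue had 1 array. Differences are therefore given without p-values, and having so few arrays limits their precision. In such excised tissue, fewer cells of a type and less RNA per cell cannot be told apart.

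None of the 10 genes differed by 2-fold between the arrays on the authors' scaling. Across all 21 probe sets the log2 differences ran between -0.75 (RYK) and 0.85 (PRICKLE1), so 0 of 21 were at 2-fold, beside 4.28% of all analysed probe sets. Of the 10 genes 6 passed the level filter (PRICKLE1, CELSR1, SCRIB, ROR1, ROR2 and PTK7), each with 1 probe set, and 0 of these 6 reached 2-fold in either direction, while 8.11% of the 7389 genes past the filter did. By direction, 3.86% of passing genes were 2-fold or more higher on the array labelled HFR and 4.25% on the array labelled PPP. With 6 genes, a count of 0 is near that background. At 1.5-fold, 2 of the 6 (PRICKLE1 and ROR2) were higher on the array labelled HFR and 0 on the array labelled PPP, against 9.43% and 13.0% of passing genes. ROR2 passed the filter through the array labelled HFR alone, so its direction in that count was fixed by its passing. With the poly-A spike-ins (added to the RNA before amplification) set equal, 6 of the 10 genes were 2-fold or more higher on the array labelled HFR. Of all passing genes, 85.6% were then 2-fold or more higher on that array as well.

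Marker genes of the labelled tissues lay on both sides of 0. CER1, whose regulatory fragment drove the reporter, read 108.3 ± 19.2 MBEI (marginal) on the HFR array and 420.2 ± 193.3 MBEI (present) on the PPP array. TBXT, a T-box factor of the streak, read 7128.6 ± 80.7 MBEI on the HFR array and 3691.4 ± 147.1 MBEI on the PPP array. Both lay opposite to the labels, so each array is referred to by its label. On the authors' scaling, 5 of 5 passing genes listed for extraembryonic endoderm were 2-fold or more higher on the array labelled HFR. They were TTR, APOA1, RBP4A, HNF4A and CDH1, of which CDH1 is an epithelial cadherin not particular to that tissue. HNF4A was absent and under 70.8 MBEI on the array labelled PPP. It passed through the array labelled HFR alone, which fixed its direction. TTR was marginal on the array labelled PPP, so it also passed through the array labelled HFR alone, with its direction fixed. A second passing TTR probe set, absent on the array labelled PPP, was at least 1.45-fold higher on the array labelled HFR, under 2-fold. The 7 listed genes summed to 8784.9 MBEI on the array labelled HFR and 713.1 MBEI on the array labelled PPP. The 7 heart field markers summed to 3947.2 MBEI on the array labelled HFR and 6266.2 MBEI on the array labelled PPP. Most of it was GATA5, at 2803.6 and 4308.1 MBEI in that order. Of the 7, 2 were called present on the array labelled HFR and 7 on the array labelled PPP. All 6 passing members lay below 0, of which 5 lay above 0 with poly-A spike-ins set equal. NKX2-5, ISL1 and MYOCD were absent and under 70.8 MBEI on the array labelled HFR. These genes passed through the array labelled PPP alone, which fixed their direction. HAND2, marginal on the array labelled HFR, also passed through the array labelled PPP alone, with its direction fixed. Of all passing genes, 45.2% lay above 0. All 5 anterior endoderm markers, CER1 among them, passed and lay below 0 (2 of them above 0 with poly-A spike-ins set equal), and summed to 1107.6 MBEI on the array labelled HFR and 2694.9 MBEI on the array labelled PPP. CER1, marginal on the array labelled HFR, passed through the array labelled PPP alone, which fixed its direction on the authors' scaling. The 9 streak markers summed to 13555.3 MBEI on the array labelled HFR, most of it TBXT, and 7716.6 MBEI on the array labelled PPP. Of the 8 streak markers that passed, 5 lay above 0 and 3 below (WNT8A, FGF8 and MIXL1) on the authors' scaling. At 2-fold, 2 were higher on the array labelled HFR (WNT3A and MESP1) and 1 on the array labelled PPP (FGF8). WNT3A read 1200.0 ± 33.0 MBEI on the array labelled HFR and 189.8 ± 7.7 MBEI on the array labelled PPP. MESP1 read 2301.2 ± 11.8 and 883.7 ± 27.9 MBEI on the same arrays in that order. FGF8, a growth factor of the streak, read 62.2 ± 5.8 MBEI (absent) on the array labelled HFR and 282.1 ± 16.5 MBEI (present) on the array labelled PPP. It passed through the array labelled PPP alone, which fixed its direction on the authors' scaling. Its log2 difference stayed below 0 (-0.69) with poly-A spike-ins set equal. The 4 blood and endothelium markers summed to 1148.7 MBEI on the array labelled HFR and 2759.0 MBEI on the array labelled PPP. All 3 passing members lay below 0, of which KDR lay above 0 (0.71) with poly-A spike-ins set equal. TAL1 and CDH5 were under 70.8 MBEI on the array labelled HFR. Both passed through the array labelled PPP alone, which fixed their direction on the authors' scaling. LMO2 entered the sums through a probe set absent on both arrays. Its other probe set passed through the array labelled PPP alone. That probe set read 44.2 ± 3.8 MBEI (marginal) on the array labelled HFR and 501.3 ± 7.0 MBEI on the array labelled PPP. TAL1, a blood transcription factor, read 60.9 ± 5.3 MBEI on the array labelled HFR and 827.5 ± 225.6 MBEI on the array labelled PPP. CDH5, the endothelial cadherin, read 18.5 ± 5.4 MBEI (absent) on the array labelled HFR and 290.8 ± 11.8 MBEI on the array labelled PPP. TAL1 and CDH5 also stayed below 0 with poly-A spike-ins set equal, at -2.28 and -2.49. The 1 passing neural plate and epiblast marker, SOX3, read 916.2 ± 75.9 MBEI on the array labelled HFR and 148.9 ± 3.7 MBEI on the array labelled PPP. No marker was listed at 0. Poly-A spike-ins, added to the RNA before amplification, had a median log2 difference of -1.49, and hybridization spike-ins one of -0.24. The part of these markers and spike-ins in the differences below was not tested.

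The number of polarity probe sets with a present call was equal on both arrays. Of the 21 probe sets, 8 (38.1%) were called present on the array labelled HFR and 8 (38.1%) on the array labelled PPP, against 38.4% and 42.2% of all analysed probe sets. Of these, 7 were present on both arrays, 1 (a CELSR1 probe set) on the array labelled HFR alone and 1 (a PRICKLE2 probe set) on the array labelled PPP alone. The other 12 were absent on both, and they took in every probe set of VANGL2 and DAAM1.

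**Figure D1:**
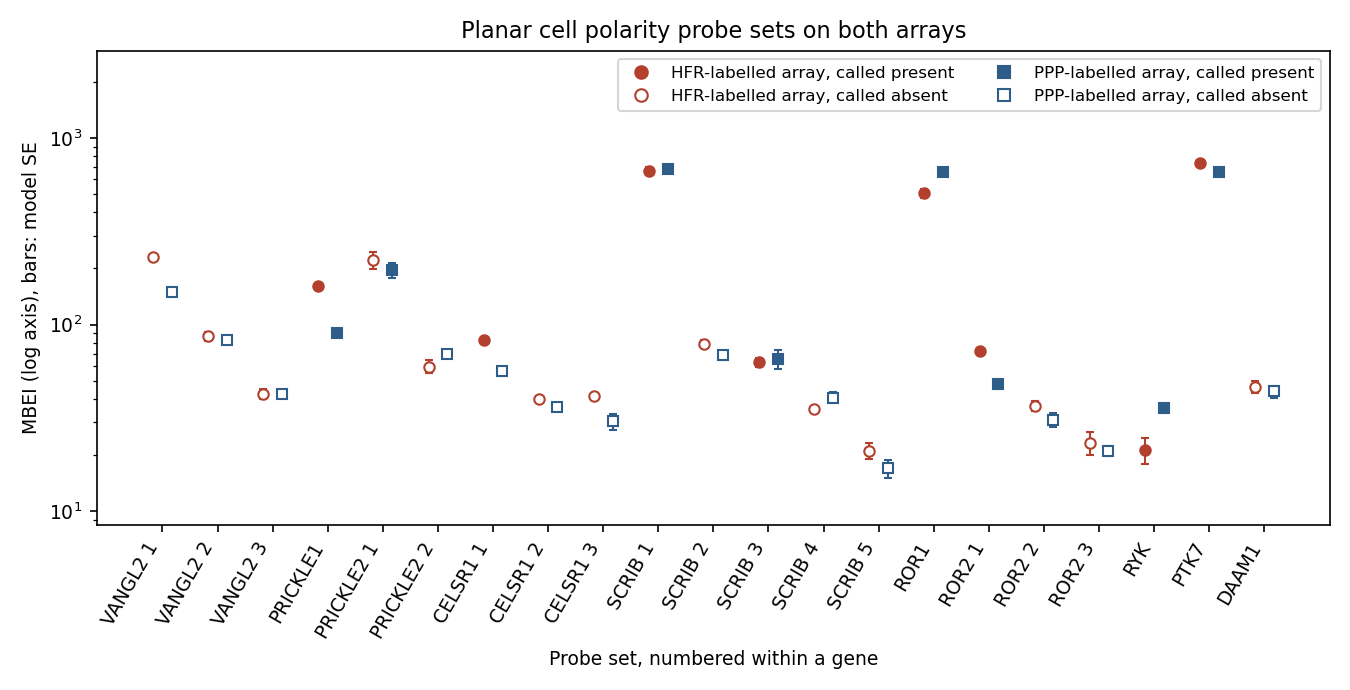
MBEI of the 21 probe sets on the array labelled HFR (circles) and the array labelled PPP (squares), on a log axis with model standard errors, filled where called present and open where called absent. Probe sets of a gene are numbered by their mean log2 level, and pairs of points lie close together, with PRICKLE1 (162.0 and 90.0 MBEI) and RYK (21.3 and 35.7 MBEI) the farthest apart.

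VANGL2, the core membrane protein of the Vangl and Prickle side, was not called present by any of its 3 probe sets. Probe set Gga.10637.1.S1_s_at read 230.0 ± 4.1 MBEI on the array labelled HFR and 149.1 ± 4.0 MBEI on the array labelled PPP, a log2 difference of 0.63 ± 0.05. Its suffix s marks a probe set whose probes can match more than 1 transcript. Gga.10637.1.S1_at read 86.5 ± 4.6 and 82.4 ± 3.3 MBEI on the arrays labelled HFR and PPP, and GgaAffx.22813.1.S1_at read 42.7 ± 2.5 and 42.6 ± 2.0 MBEI on the same arrays in that order. Their log2 differences of 0.07 ± 0.10 and 0.00 ± 0.11 lay within their errors. The MBEI come from perfect match probes alone, so an absent call can stand beside an MBEI above the level filter. No fold is given for VANGL2, whose signal was not called present on either array.

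PRICKLE1, a cytoplasmic LIM domain protein that binds Vangl, lay farthest toward the array labelled HFR. Its 1 probe set, GgaAffx.6003.1.S1_at, read 162.0 ± 3.0 MBEI on the array labelled HFR and 90.0 ± 3.3 MBEI on the array labelled PPP, both called present. It was 1.80-fold higher on the array labelled HFR, a log2 difference of 0.85 ± 0.06. Of all passing probe sets 12.7% lay at least as far from 0 in either direction, so a difference of this size was not rare on these arrays.

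PRICKLE2, its paralog, had 2 probe sets with opposite signs. Gga.13150.1.S1_at read 221.7 ± 22.9 MBEI (absent) on the array labelled HFR and 195.4 ± 17.7 MBEI (present) on the array labelled PPP, so the brighter array was the one without a present call. Its log2 difference was 0.18 ± 0.20. GgaAffx.22212.1.S1_at read 59.7 ± 4.6 and 70.0 ± 2.9 MBEI on the arrays labelled HFR and PPP, absent on both, with a log2 difference of -0.23 ± 0.13. Neither exceeded 2 standard errors, and the sign of PRICKLE2 is not settled by these data.

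CELSR1, the core cadherin that joins polarity complexes of neighbouring cells, had 3 of 3 probe sets above 0. The one past the filter, GgaAffx.8536.2.S1_s_at, read 82.8 ± 2.0 MBEI (present) on the array labelled HFR and 56.3 ± 3.0 MBEI (absent) on the array labelled PPP. That is at least 1.47-fold higher on the array labelled HFR, a log2 difference of 0.56 ± 0.08. The other probe sets were absent on both arrays. GgaAffx.8536.1.S1_at read 41.3 ± 0.9 MBEI on the array labelled HFR and 30.3 ± 3.1 MBEI on the array labelled PPP, a log2 difference of 0.45 ± 0.15. GgaAffx.8536.3.S1_at read 39.9 ± 1.1 and 36.3 ± 1.8 MBEI on the arrays labelled HFR and PPP, a difference of 0.14 ± 0.08. CELSR1 passed the filter through the array labelled HFR alone, so a value above 0 was built into its passing.

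SCRIB, a scaffold of the apicobasal Scribble complex that also binds Vangl, was level between the arrays. Its passing probe set, Gga.7740.1.S1_a_at, read 663.8 ± 33.8 MBEI on the array labelled HFR and 684.7 ± 9.1 MBEI on the array labelled PPP, a log2 difference of -0.04 ± 0.08. Gga.7740.2.A1_at, present on both arrays but under the level filter, read 63.0 ± 3.4 and 65.6 ± 7.8 MBEI on the arrays labelled HFR and PPP, a difference of -0.06 ± 0.19. The other 3 SCRIB probe sets were absent on both arrays, with log2 differences between -0.21 and 0.31. Of the 5 probe sets 2 lay above 0 and 3 below, and for the 2 with present calls the difference was smaller than its model error.

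The Ror receptors, single-pass tyrosine kinase-like receptors of WNT5A, lay on opposite sides of 0. ROR1 (Gga.9476.1.S1_at) read 505.5 ± 30.6 MBEI on the array labelled HFR and 657.7 ± 33.9 MBEI on the array labelled PPP, 1.30-fold higher on the array labelled PPP, a log2 difference of -0.38 ± 0.11 that was 1.11 with poly-A spike-ins set equal. ROR2 (Gga.14333.1.S1_at) read 72.5 ± 2.2 MBEI on the array labelled HFR and 48.0 ± 2.5 MBEI on the array labelled PPP, called present on both. It was 1.51-fold higher on the array labelled HFR, a log2 difference of 0.59 ± 0.09. The other 2 ROR2 probe sets were absent on both arrays and also lay above 0, at 0.25 ± 0.16 and 0.15 ± 0.22. The brighter ROR2 value sits just above the level filter of 70.8 MBEI.

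RYK, a Wnt receptor whose kinase domain is inactive, lay farthest toward the array labelled PPP. Gga.3751.1.S1_at read 21.3 ± 3.4 MBEI on the array labelled HFR and 35.7 ± 2.1 MBEI on the array labelled PPP, called present on both and under the level filter. It was 1.68-fold higher on the array labelled PPP, a log2 difference of -0.75 ± 0.25 that was 0.74 with poly-A spike-ins set equal. With 16 MBEI added to each value before the log it was -0.47, and its error was the widest of the 21 probe sets.

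PTK7, a pseudokinase that serves as a polarity coreceptor, and DAAM1, a formin that links Dishevelled to actin, were close to 0. PTK7 (Gga.2218.1.S1_at) read 733.4 ± 25.2 MBEI on the array labelled HFR and 656.6 ± 26.3 MBEI on the array labelled PPP, 1.12-fold higher on the array labelled HFR, with a log2 difference of 0.16 ± 0.08. DAAM1 (GgaAffx.7621.1.S1_s_at) read 46.4 ± 3.5 and 43.9 ± 3.3 MBEI on the arrays labelled HFR and PPP, absent on both, with a difference of 0.08 ± 0.15.

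**Figure D2:**
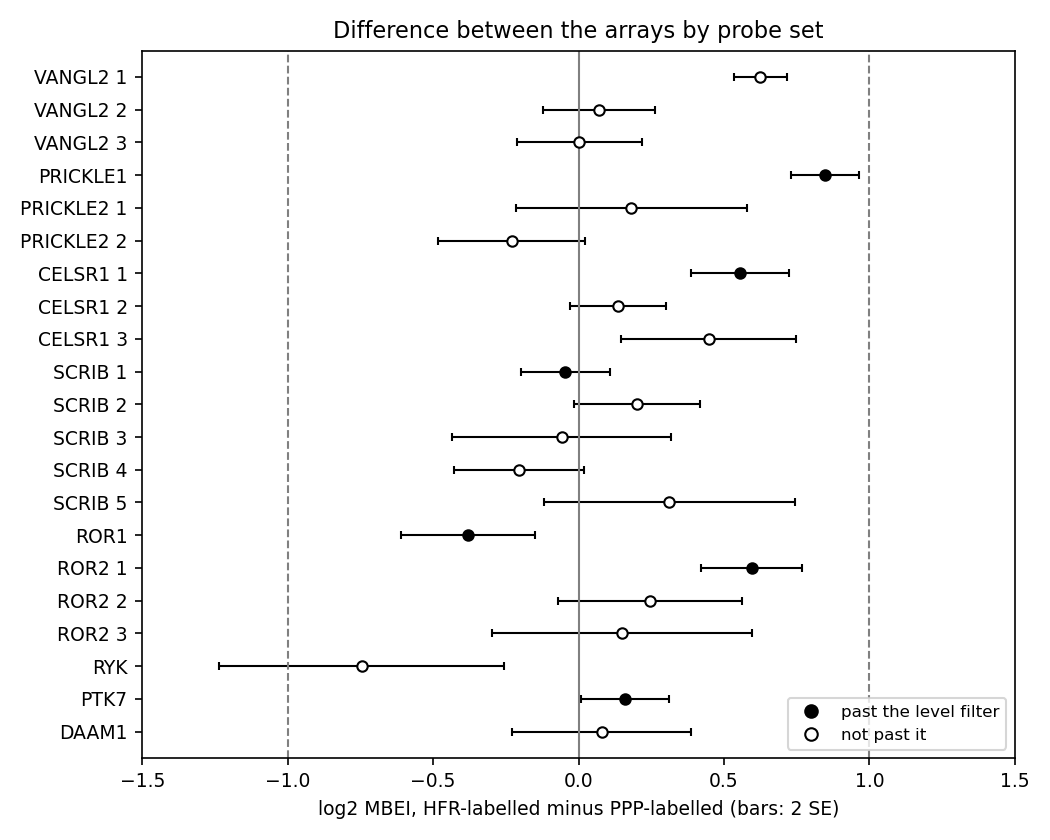
Log2 difference, array labelled HFR minus array labelled PPP, for each of the 21 probe sets, with bars of 2 model standard errors and dashed lines at 2-fold (-1 and 1). Filled points passed the level filter, and each point lies inside the dashed lines on the authors' scaling, while 21 of 21 lie above 0 with poly-A spike-ins set equal.

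Among the 6 passing genes 4 lay above 0 (PRICKLE1, ROR2, CELSR1 and PTK7) and 2 below (SCRIB and ROR1), on the authors' scaling. All 6 lay above 0 with poly-A spike-ins set equal. Their median log2 difference was 0.36, beside -0.05 over all 7389 passing genes, of which 45.2% lay above 0. CELSR1 and ROR2 were under 70.8 MBEI on the array labelled PPP and passed through the array labelled HFR alone. When both arrays had to pass, 4 genes remained and the median was 0.06, so the median of the 6 genes rests on how the filter admits members. Over all 21 probe sets 15 lay above 0 and the median was 0.15, beside 58.2% above 0 and a median of 0.07 over all analysed probe sets.

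A difference larger than 2 model standard errors was found for 5 of the 6 passing genes, all but SCRIB. The 4 above 0 were higher on the array labelled HFR and ROR1 was higher on the array labelled PPP, which turned with poly-A spike-ins set equal. CELSR1 and ROR2 passed through the array labelled HFR alone, which fixed their direction, and CELSR1 had no present call on the array labelled PPP. Over all passing genes, 69.6% differed by more than 2 such errors, 30.9% toward the array labelled HFR and 38.7% toward the array labelled PPP. The model error leaves out any spread between embryos or between extractions, and a share of 5 in 6 stands beside that broad background.

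**Figure D3:**
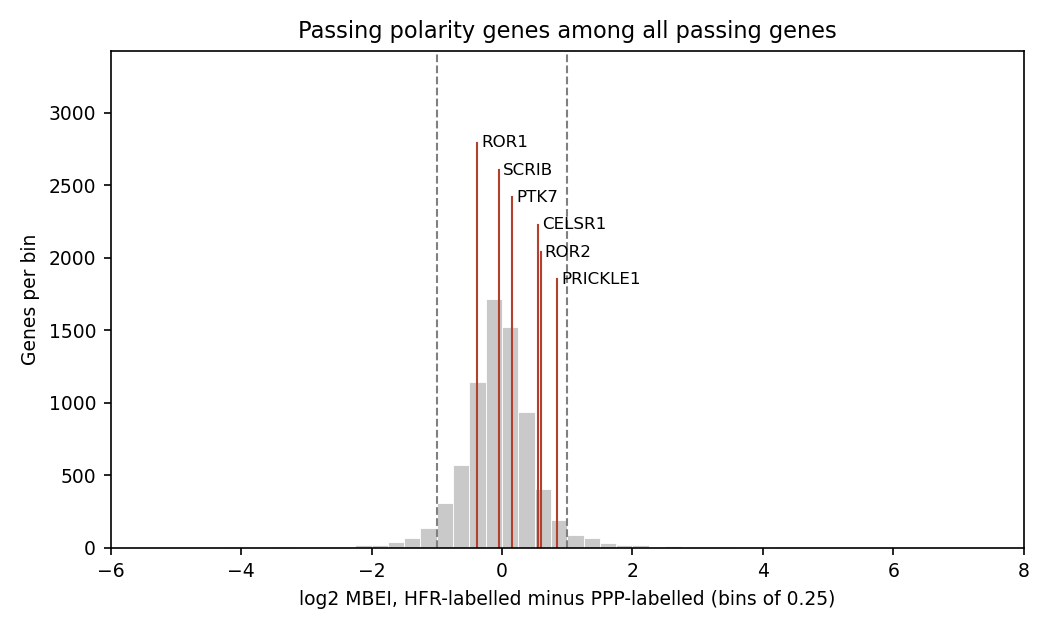
Number of genes past the level filter by log2 difference, array labelled HFR minus array labelled PPP, in bins of 0.25, for 7389 genes (grey). Red lines mark the 6 passing polarity genes, between -0.38 (ROR1) and 0.85 (PRICKLE1) on the authors' scaling, inside the dashed 2-fold lines. ROR1 and SCRIB turn above 0 with poly-A spike-ins set equal.

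Other genes of the pathway were taken from 5 lists with 74 entries, of which 62 were on the array and 43 passed the level filter. Of the 43, 3 were 2-fold or more higher on the array labelled HFR (WNT5B, DACT2 and RHOB) and 3 on the array labelled PPP (WNT11, SFRP1 and JUN). The shares over all passing genes were 3.86% and 4.25%. WNT11 was under 70.8 MBEI on the array labelled HFR and passed through the array labelled PPP alone, which fixed its direction. On the authors' scaling 19 lay above 0 and 24 below, with a median of -0.09. Passing through the array labelled HFR alone fixed the sign of CELSR3 and WNT4. Passing through the array labelled PPP alone fixed that of WNT11 and SMURF2. With poly-A spike-ins set equal, all 43 lay above 0, and 37 genes of the lists were 2-fold or more higher on the array labelled HFR and 0 on the array labelled PPP, while 85.6% of all passing genes were then 2-fold higher on the array labelled HFR.

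The ligands divided by member. WNT5A, the main noncanonical ligand of gastrulation, read 1892.0 ± 89.5 MBEI on the array labelled HFR and 1565.4 ± 120.9 MBEI on the array labelled PPP with Gga.409.1.S1_at, a log2 difference of 0.27 ± 0.13. Its other probe sets present on both arrays read 0.90 ± 0.14 (Gga.17110.1.S1_at) and 0.73 ± 0.07 (Gga.17362.1.S1_s_at), so each was above 0 and under 2-fold. WNT5B, its paralog, read 1905.9 ± 28.9 MBEI on the array labelled HFR and 503.1 ± 9.7 MBEI on the array labelled PPP, a 3.79-fold difference. WNT11, a ligand of convergent extension, read 56.1 ± 3.4 MBEI on the array labelled HFR and 137.7 ± 3.5 MBEI on the array labelled PPP with Gga.306.1.S1_at, a log2 difference of -1.30 ± 0.09 that was 0.19 with poly-A spike-ins set equal. Another WNT11 probe set, Gga.13827.1.S1_at, passed the filter and lay within its error, at -0.07 ± 0.15. It was absent on the array labelled HFR. Gga.13827.1.A1_at, absent on both arrays, lay at 0.01 ± 0.14. The WNT11 difference thus rests on 1 probe set and was not seen with the other passing one. WNT11 stayed among the 2-fold genes under median centring, quantile normalization and the loess trend. It left them with the median over probe sets, a stricter level filter or both arrays past the filter. Both passing WNT11 probe sets passed through the array labelled PPP alone, which fixed their direction.

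Secreted and intracellular modulators also lay at both ends. DACT2, a Dishevelled-binding protein, read 1136.1 ± 40.1 MBEI on the array labelled HFR and 425.7 ± 12.0 MBEI on the array labelled PPP. That probe set, of suffix s, was 2.67-fold higher on the array labelled HFR. A second passing probe set with the same number in its name gave 1.36 ± 0.08 on the log2 scale. DACT2 probe sets with other numbers, absent on both arrays, gave 0.055 ± 0.182 and 0.111 ± 0.104. DACT1, a relative of DACT2, had a log2 difference of -0.77 ± 0.11, which was 0.72 with poly-A spike-ins set equal. SFRP1, a secreted Wnt antagonist, read 333.2 ± 20.7 MBEI on the array labelled HFR and 722.4 ± 10.0 MBEI on the array labelled PPP, a log2 difference of -1.12 ± 0.09 that was 0.37 with poly-A spike-ins set equal. A second SFRP1 probe set present on both arrays gave -1.14 ± 0.20. DACT1 lies under 2-fold and was named after its value was seen.

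None of the other core genes reached 2-fold on the authors' scaling. Of 12 listed, 9 were on the array and 5 passed, with 1 above 0 and 4 below on the authors' scaling. The 1 above 0 was CELSR3 (0.05 ± 0.11), absent on the array labelled PPP, so its sign was fixed by its passing. Of the 4 below, INVS (-0.175 ± 0.154), FZD6 and DVL1 lay within 2 standard errors of 0 with their brightest probe sets. With 5 genes, a count of 0 at 2-fold is near the share of 8.11% over all passing genes. FZD7, a Frizzled receptor used in convergent extension, read 840.6 ± 14.9 MBEI on the array labelled HFR and 1251.4 ± 44.4 MBEI on the array labelled PPP with its brightest probe set, a log2 difference of -0.57 ± 0.06. A second FZD7 probe set present on both arrays gave 0.42 ± 0.12, so the sign of FZD7 depends on the probe set, and -0.57 was 0.91 with poly-A spike-ins set equal. FZD6 lay at -0.11 ± 0.09 with its brightest probe set, and DVL1, a Dishevelled protein, at -0.14 ± 0.20. A second passing FZD6 probe set, present on both arrays, gave -0.47 ± 0.18, which was 1.02 with poly-A spike-ins set equal. FZD3 did not pass as a gene, since its brightest probe set read 333.6 ± 27.6 (absent) and 268.9 ± 22.1 MBEI (present) on the arrays labelled HFR and PPP. A dimmer FZD3 probe set of suffix s, past the filter and present on both, read 97.3 ± 8.3 MBEI on the array labelled HFR and 70.8 ± 3.1 MBEI on the array labelled PPP, a log2 difference of 0.46 ± 0.14. VANGL1, the paralog of VANGL2, was absent on both, at 55.6 ± 2.8 and 59.8 ± 3.8 MBEI on the arrays labelled HFR and PPP. The brightest DVL2 probe set was absent on both arrays, and another, present on both but dim, lay at 0.05 ± 0.17. DVL3 had no probe set under its symbol and was not analysed here.

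Among the cytoskeletal effectors 16 of 20 passed, 8 above 0 and 8 below on the authors' scaling. RHOB, an endosomal small GTPase, read 2090.5 ± 74.4 MBEI on the array labelled HFR and 625.6 ± 24.1 MBEI on the array labelled PPP, 3.34-fold higher on the array labelled HFR, with a probe set of suffix s. JUN, a transcription factor and target of Jun kinase, read 248.9 ± 32.9 MBEI on the array labelled HFR and 607.6 ± 16.2 MBEI on the array labelled PPP, a log2 difference of -1.29 ± 0.19 that was 0.20 with poly-A spike-ins set equal. RHOA, a small GTPase downstream of DAAM1, read 4051.8 ± 124.1 and 3715.7 ± 123.7 MBEI on the arrays labelled HFR and PPP with its brightest probe set, a difference of 0.12 ± 0.07. Other passing RHOA probe sets, present on both arrays, lay at -0.02 ± 0.05 and -0.18 ± 0.05. The latter was 1.31 with poly-A spike-ins set equal, and the sign of RHOA depends on the probe set. ROCK1, an effector kinase of RHOA, lay at -0.30 ± 0.08 (1.19 with poly-A spike-ins set equal), and ROCK2 did not pass.

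The apicobasal partners of SCRIB (10 of 11 passed) had 0 genes at 2-fold and a median of -0.09 on the authors' scaling. The Fat, Dachsous and cilium genes (2 of 8 passed) also had 0 genes at 2-fold on that scaling. With so few genes in each list, counts of 0 are near the share of 8.11% over all passing genes.

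**Figure D4:**
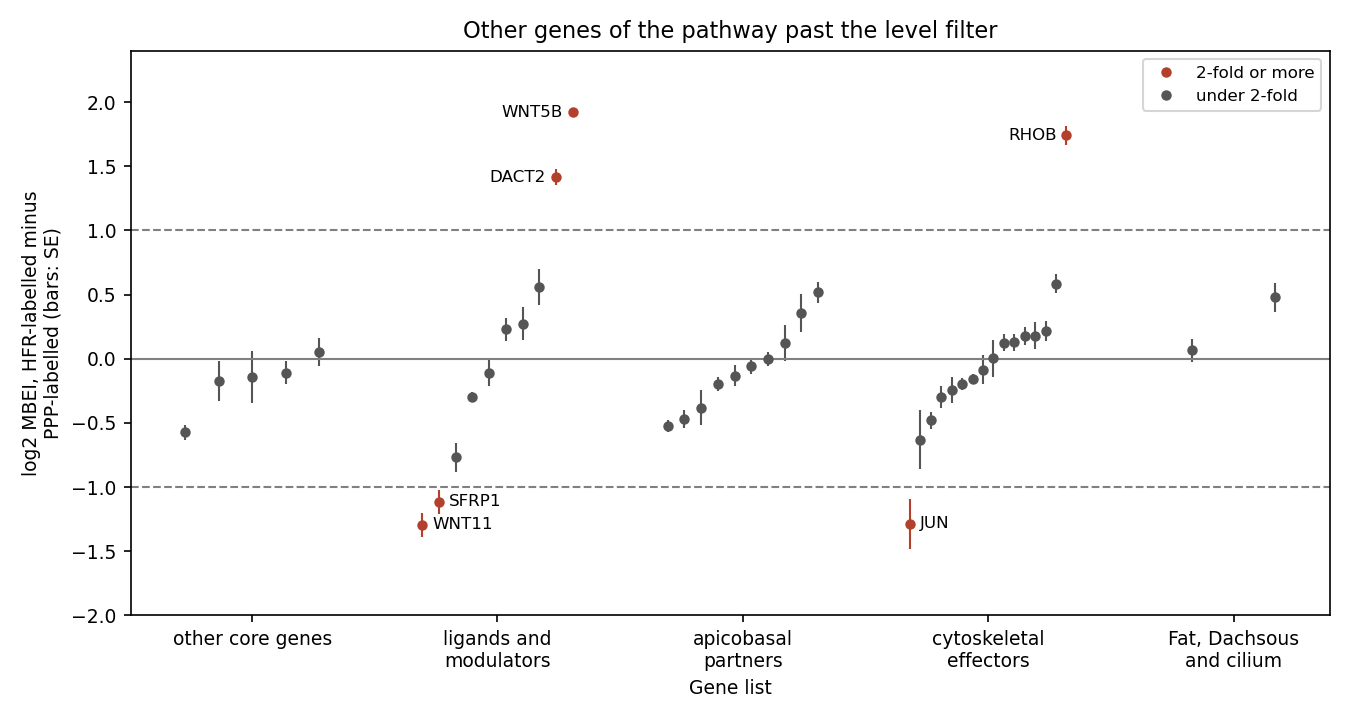
Log2 difference, array labelled HFR minus array labelled PPP, with model standard errors, for the 43 other pathway genes past the level filter, by list. The 6 named genes (red) lie outside the dashed 2-fold lines, WNT5B, DACT2 and RHOB above and WNT11, SFRP1 and JUN below on the authors' scaling, while all 43 lie above 0 with poly-A spike-ins set equal. WNT11 passed the filter through the array labelled PPP alone, which fixed its direction on the authors' scaling.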

How the data were processed

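Total RNA (45 ng) was amplified over 2 rounds and labelled with biotin, per the labels' protocols. For actin, the 3 prime over 5 prime signal of control probe sets was 4.92 on the array labelled HFR and 5.08 on the array labelled PPP. It was 1.96 and 2.79 for gapdh, and 3.03 and 3.54 for ef1a, in that order. The part of this 3 prime excess in the absent calls and in differences between probe sets of a gene was not tested. The deposited values are intensities on a linear scale, with a detection call and a standard error per probe set, per the file headers. Per the series' design text, the authors scaled the arrays to a baseline array through an invariant set and modelled the perfect match probes over 6 arrays. Of these, 4 came from another study, and their 12 columns were left aside. The submitters' processing notes name GCOS 1.3.

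Of 38535 probe sets, 153 control or reporter sets were left out. The series' value table held equal values for 38535 of 38535 probe sets on each array. Symbols came from the platform annotation, brought up to date by gene ID from the RefSeq genes of GRCg7b. No coordinates or sequences are given. A gene was represented by its probe set of highest mean log2 intensity. Log2 differences were computed with Python 3.11.15 and NumPy 2.4.6, with standard errors propagated from both arrays. The computation was run on simulated data with noise drawn from the same model errors. That run cannot show how well these errors describe the arrays. A value listed at 0 (1 probe set) was set to 0.1. A fold over an array without a present call is a lower bound, taken against its value or, if higher, the lowest present value of that array (6.5 MBEI for HFR and 4.8 MBEI for PPP). Differences were counted from 2-fold, and 16 alternatives were tried.

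Every member is named, with all its probe sets counted. Other pathway genes were named when they reached 2-fold past the filter or from a short fixed list. DACT1, CELSR3, INVS, WNT4 and SMURF2 were named besides, with their values known. Of the markers only CER1 and TBXT were set to be named, and the others were named with their values known. The members and lists were chosen with earlier results of these data known.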

Additional observations from a re-analysis of the deposited data

How the results depend on the processing

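No polarity gene reached 2-fold under median centring, quantile normalization, a loess trend (span 0.3), a pseudocount of 16 MBEI, no level filter, the 75th percentile as filter, presence on both arrays, a relative error under 30%, leaving out cross-matching probe sets (suffix s, x or a), the median over probe sets, or both arrays past the filter (the last added after seeing the data). With poly-A spike-ins set equal, which moved the median of all passing genes to 1.47, in place of -0.05, 6 member genes and 6 member probe sets were 2-fold higher on the array labelled HFR, the members' median was 1.85, and 37 pathway genes were 2-fold higher on the array labelled HFR and 0 on the array labelled PPP, beside 85.6% of all passing genes then 2-fold higher on the array labelled HFR. At 1.5-fold, 2 member genes and 2 member probe sets were higher on the array labelled HFR, and 4 pathway genes were higher on the array labelled HFR and 5 on the array labelled PPP, beside 9.43% and 13.0% of all passing genes. Of the pathway genes higher on the array labelled PPP, WNT11 and SMURF2 had passed through that array alone, which fixed their direction. At 4-fold the pathway counts were 0 in both directions. The median of the passing member genes was 0.17 without the filter, -0.045 with the 75th percentile (3 genes), 0.16 with presence on both arrays (5 genes) and 0.057 with both arrays past the filter (4 genes), because different members were admitted. Under the scalings other than the poly-A one, the sign turned for 5 probe set values of VANGL2 and DAAM1, each between -0.09 and 0.08. No paired analysis was possible because each tissue had 1 array, and no replicate could be left out. Absent calls limit VANGL2, DAAM1 and PRICKLE2, and a level under the filter limits RYK, which was called present. CELSR1 and ROR2 are limited by passing through the array labelled HFR alone.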
